A study of Mus musculus with 10 samples.

Results

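Glutathione S-transferases couple the tripeptide glutathione to electrophilic molecules. The 10 genes described here were chosen by name, with earlier results of these data known, and are 3 of the mu class (Gstm1, Gstm2, Gstm5), 2 of the theta class (Gstt1, Gstt2), Gsto1 of the omega class, Gstp1 of the pi class and 3 membrane-bound enzymes (Mgst1, Mgst2, Mgst3). Each gene was read from the probe set whose platform annotation gives it as the only symbol. All 10 had exactly 1 such probe set, out of 19938 genes measured, and all 10 passed the level filter that left 15662 genes for testing. That filter was a mean of at least 6.23 on the log2 intensity scale, the 25th percentile of all probe sets.

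Gene expression was measured on 10 arrays of RNA from c-Kit+ mouse cells of an acute myeloid leukaemia (AML) that the MLL-AF9 fusion drives, and the series asks how expression changes when Zfx, a zinc finger transcription factor gene on the X chromosome, is deleted. The 5 lines were separate primary leukaemias taken from moribund mice, and all 5 carried Cre-ER, a Cre recombinase that tamoxifen switches on. The groups were fl 4-OHT (3 arrays) and fl vehicle (3 arrays), from lines 10949, 10950 and 10986 with the floxed Zfx fl/y allele, and wt 4-OHT (2 arrays) and wt vehicle (2 arrays), from lines 10977 and 10980 with Zfx wt/y. Every line was cultured for 72 h both with 10 nM 4-hydroxytamoxifen (4-OHT) and with ethanol vehicle, in medium with IL-3, IL-6 and SCF, and c-Kit+ cells were then sorted. Each line is 1 leukaemia, so a genotype is represented by 3 or 2 leukaemias.

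The soluble classes and the membrane-bound enzymes are separate protein families that share the conjugation reaction. The conjugates leave the cell through export pumps and are trimmed to mercapturic acids. Some family members also reduce peroxides, and Mgst2 and Mgst3 can make leukotriene C4, the conjugate of leukotriene A4 with glutathione. The transcription factor NRF2 drives several of these genes through the antioxidant response element. In blood-forming and leukaemic cells the enzymes are known for inactivating alkylating drugs and lipid peroxides.

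The line 10986 array under vehicle lay apart from the other 9. It was at 49.4 on the first principal component, which held 47.2% of the variance, against a range of -20.4 to 23 on the others. The SD of all log2 changes was 0.497 in line 10986, against 0.174 to 0.263 in the other lines. For genes named below, a mean fl change that line moved by over 1.5 times is also given without it. The Zfx probe set did not fall with 4-OHT: its changes were -0.02, 0.35 and 0.79 in fl lines 10949, 10950 and 10986, a mean of 0.37 with line 10986 and 0.17 without it. The sources used here do not give where its probes lie relative to the deleted exons, so these values check neither the deletion nor the labels. All 10 markers of c-Kit+ myeloid leukaemia passed the level filter, Kit among them with a change of 0.20 in the fl lines (n = 3 line pairs, SE 0.12, limma adjusted p = 0.574), and 0.34 without line 10986.

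Promoters are shown for Gstt1, which had the largest change of the 10 in the fl lines, for the 2 of the 10 with a motif that was searched (Gstm5 and Mgst1), and for Gstt3, the theta class neighbour of Gstt1. The promoter table for build GRCm38.p6 held 9 of the 10 genes, with 11 start sites, and Gstt2 was not in it. Each run is the 250 bases before the start site, 5′ to 3′ on the gene's strand, and capitals mark a match to a searched motif on either strand.
Gstt1, chr10:75797732-75797981, minus strand: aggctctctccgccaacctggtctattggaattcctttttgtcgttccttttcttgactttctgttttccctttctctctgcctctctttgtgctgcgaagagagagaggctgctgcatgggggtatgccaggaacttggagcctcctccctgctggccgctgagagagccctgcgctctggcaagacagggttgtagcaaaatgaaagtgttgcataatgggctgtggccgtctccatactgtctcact
Gstt3 (first of its start sites), chr10:75781423-75781672, minus strand: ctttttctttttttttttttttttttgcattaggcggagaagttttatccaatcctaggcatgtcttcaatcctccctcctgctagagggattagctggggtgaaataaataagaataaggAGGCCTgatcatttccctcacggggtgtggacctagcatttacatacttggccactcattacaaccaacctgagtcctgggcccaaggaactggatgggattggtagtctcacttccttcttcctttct
Gstm5, chr3:107895604-107895853, plus strand: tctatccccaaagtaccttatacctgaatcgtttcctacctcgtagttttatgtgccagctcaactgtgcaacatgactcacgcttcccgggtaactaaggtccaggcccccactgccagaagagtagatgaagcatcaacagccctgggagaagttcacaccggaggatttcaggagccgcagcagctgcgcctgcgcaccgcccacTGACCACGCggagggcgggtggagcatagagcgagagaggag
Mgst1 (first of its start sites), chr6:138140277-138140526, plus strand: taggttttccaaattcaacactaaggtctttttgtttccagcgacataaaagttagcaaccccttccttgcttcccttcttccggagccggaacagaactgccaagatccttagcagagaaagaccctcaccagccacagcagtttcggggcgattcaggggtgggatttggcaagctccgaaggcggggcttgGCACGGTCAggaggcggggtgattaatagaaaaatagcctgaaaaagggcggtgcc
The motifs were the antioxidant response core TGACNNNGC and AGGCCT, the core of the ZFX binding motif, which is its own reverse complement and does not overlap the other core in these promoters. The antioxidant core was found in 2 of the 9 genes, 42 bases upstream of the Gstm5 start on the same strand and 56 bases upstream of the first Mgst1 start on the opposite strand. It was present in 2 of the 11 promoters and in 10.2% of all 32851 promoters of the same length. AGGCCT was in 0 of the 11 promoters, against 8.7% of all promoters. Among 10 other glutathione genes searched that are in the table, 5 held AGGCCT (Gstt3, Gstm3, Gstm6, Gstm7 and Gclm) and 2 the antioxidant core (Gstm7 and Gclm). A match at any start site of a gene counted, and some have several, so the shares per promoter are no measure for these counts. In Gstt3 the match lay 129 bases upstream of the first start. A match is a run of letters and does not show that a factor binds there.

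Among the 10 genes, Gstt1 had the largest change with 4-OHT in the fl lines, and the values that follow for the 10 genes are descriptions with no test, because the genes were chosen on these comparisons. Gstt1, whose enzyme acts on small halogenated molecules such as dichloromethane, stood at log2 levels of 9.04, 8.49 and 10.20 on the fl 4-OHT arrays of lines 10949, 10950 and 10986, against 7.47, 7.31 and 7.39 on their vehicle arrays. On the linear scale these are intensities of 527, 359 and 1175 with 4-OHT, against 177, 159 and 168 with vehicle. All 3 fl 4-OHT arrays lay above all 3 fl vehicle arrays. The log2 changes were 1.57, 1.18 and 2.81, a mean of 1.85 ± 0.85 (SD, n = 3 line pairs), or 3.61-fold. Without line 10986 the mean was 1.37. In bulk RNA such as this, a larger share of a cell type and more RNA per cell cannot be told apart. Of the 15662 genes tested, 6 had a larger mean change in the fl lines.

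In the wt lines Gstt1 stood at 7.47 and 6.90 on the 4-OHT arrays of lines 10977 and 10980, against 7.29 and 7.11 on their vehicle arrays. These groups overlapped, and the changes of 0.17 and -0.21 had opposite signs. Gstt1 differed between fl and wt lines by 0.19 under vehicle and by 2.06 under 4-OHT, and the groups did not overlap in either case. The fl 4-OHT arrays enter both the within-line change and the difference from wt under 4-OHT, so these are not separate observations.

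**Figure D1:**
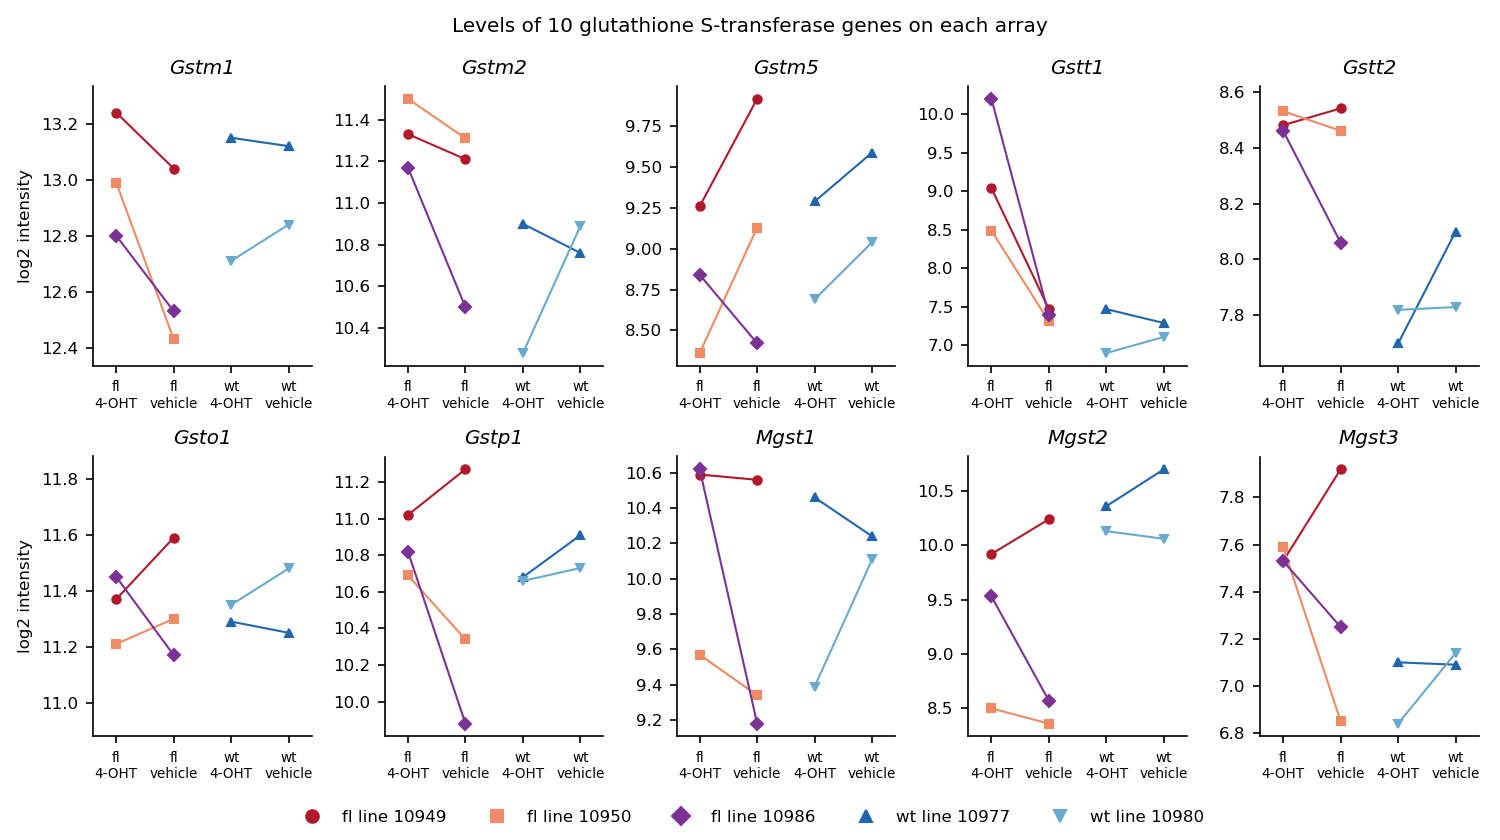
Log2 intensity of the 10 genes on every array, 1 panel per gene with its own scale; each colour and marker is 1 line, lines join the 2 arrays of a line, and groups run fl 4-OHT, fl vehicle, wt 4-OHT, wt vehicle. Gstt1 reaches 8.49 to 10.20 on the fl 4-OHT arrays and stays at or under 7.47 on the other 7 arrays.

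Gstt2, the other theta class gene of the 10, had smaller changes. Its levels were 8.48, 8.53 and 8.46 on the fl 4-OHT arrays, against 8.54, 8.46 and 8.06 on the fl vehicle arrays. The changes were -0.06, 0.08 and 0.41 (mean 0.14 ± 0.24, SD, n = 3 line pairs, and 0.01 without line 10986), and the groups overlapped. On the wt arrays Gstt2 stood at 7.70 and 7.82 with 4-OHT, against 8.10 and 7.83 with vehicle. All 3 fl 4-OHT arrays lay above both wt 4-OHT arrays, a difference of 0.73.

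Gstt1 and Gstt2 lie with Gstt3 and Gstt4 on chromosome 10, in the order Gstt3, Gstt1, Gstt4, Gstt2, with 0 other genes between them in the GRCm38.p6 gene table. Gstt3 stood at 9.10, 8.71 and 9.15 on the fl 4-OHT arrays, against 8.75, 8.07 and 8.22 on the fl vehicle arrays. Its change of 0.65 (n = 3 line pairs, SE 0.13) did not pass (limma adjusted p = 0.116, and 0.0506 to 0.348 over the alternatives). The changes of Gstt3 were 0.35, 0.65 and 0.93 in fl lines and -0.11 and -0.19 in wt lines. Gstt4, near the level filter, had a change of 0.11 (SE 0.09, adjusted p = 0.779), and 0.16 without line 10986. Gstt1 and Gstt3 were above 0 in all 3 fl lines, and Gstt2 and Gstt4 were not. Whether probes of these related genes take up each other's RNA was not tested.

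**Figure D2:**
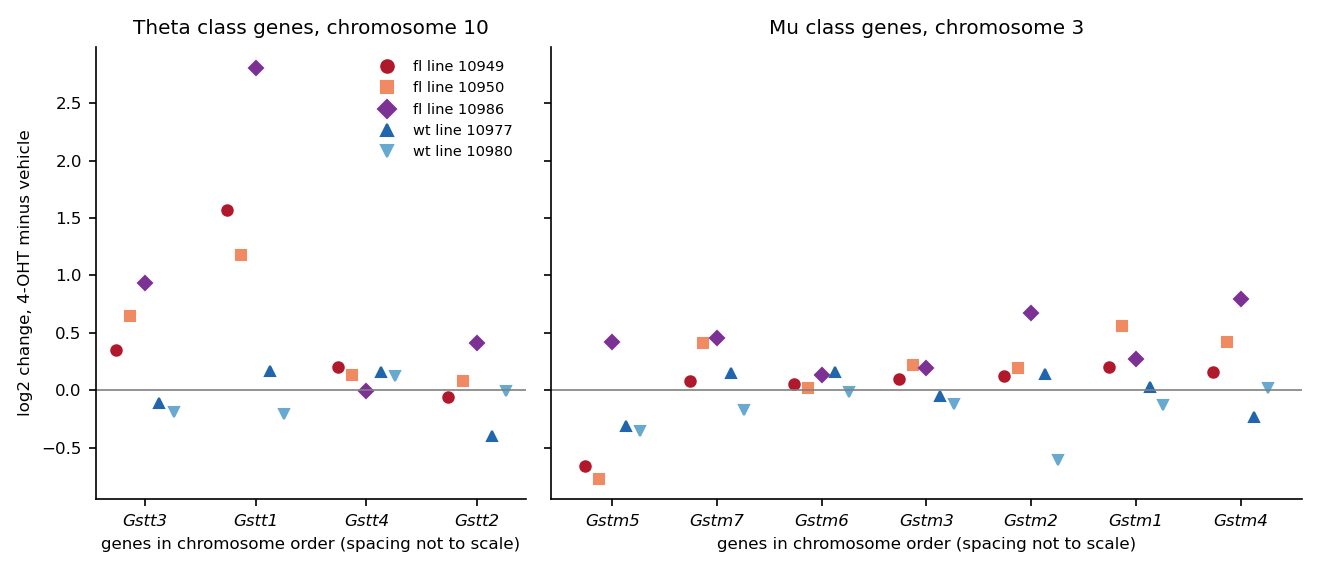
Log2 change (4-OHT minus vehicle) of the theta class genes on chromosome 10 and the mu class genes on chromosome 3, in chromosome order and not to scale; each point is 1 line. Gstt1 has 3 fl points between 1.18 and 2.81 beside neighbours closer to 0, and Gstm5 has 2 fl points below -0.6.

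Of the mu class enzymes, which act on epoxides and on aldehydes from lipid peroxidation, Gstm1 and Gstm2 were above 0 in all 3 fl lines and Gstm5 was not. Gstm1 stood at 13.24, 12.99 and 12.80 on the fl 4-OHT arrays, against 13.04, 12.43 and 12.53 on the fl vehicle arrays. The changes were 0.20, 0.56 and 0.27 (mean 0.34 ± 0.19, SD, n = 3 line pairs), and the groups overlapped. Its wt changes were 0.03 and -0.13.

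Gstm2 stood at 11.33, 11.50 and 11.17 on the fl 4-OHT arrays, against 11.21, 11.31 and 10.50 on the fl vehicle arrays. Its changes of 0.12, 0.19 and 0.67 (mean 0.33 ± 0.30) averaged 0.16 without line 10986. Among wt arrays Gstm2 stood at 10.90 and 10.28 with 4-OHT, against 10.76 and 10.89 with vehicle, so its wt lines had changes of opposite sign. Under 4-OHT all fl arrays lay above both wt arrays, by 0.75 on average.

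Gstm5 had a change of the opposite sign in line 10986 from that in the other 4 lines. Its levels were 9.26, 8.36 and 8.84 on the fl 4-OHT arrays, against 9.92, 9.13 and 8.42 on the fl vehicle arrays. The changes were -0.66 and -0.77 in lines 10949 and 10950 and 0.42 in line 10986, a mean of -0.34 ± 0.66 (SD, n = 3 line pairs). Without line 10986 the mean was -0.72. Gstm5 was also lower with 4-OHT in both wt lines, with levels of 9.29 and 8.69 against 9.59 and 9.04 with vehicle (changes of -0.31 and -0.36). The wt groups overlapped, since line 10977 lay above line 10980 under both treatments.

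Gsto1, which uses a cysteine in its active site and also reduces dehydroascorbate, varied least of the 10, with an SD of 0.13 over the 10 arrays. It stood at 11.37, 11.21 and 11.45 on the fl 4-OHT arrays, against 11.59, 11.30 and 11.17 on the fl vehicle arrays. The changes of -0.22, -0.09 and 0.27 gave a mean of -0.01 ± 0.26, and -0.16 without line 10986. All 4 groups overlapped for Gsto1, at 11.29 and 11.35 on the wt 4-OHT arrays and 11.25 and 11.48 on the wt vehicle arrays.

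Gstp1, which also binds and holds back the stress kinase JNK, stood at 11.02, 10.69 and 10.82 on the fl 4-OHT arrays, against 11.27, 10.34 and 9.88 on the fl vehicle arrays. The changes were -0.25, 0.35 and 0.94, a mean of 0.35 ± 0.59, and the mean was 0.05 without line 10986. Both wt lines were lower with 4-OHT: Gstp1 stood at 10.68 and 10.66 with 4-OHT, against 10.91 and 10.73 with vehicle, with no overlap. The order of the fl lines was the same on both probe sets that Gstp1 shares with its close copy Gstp2, where the fl changes were -0.04, 0.14 and 0.64 on one and -0.03, 0.20 and 0.71 on the other. Whether the Gstp1 probe set also takes up RNA of its copy was not tested.

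The 3 membrane-bound enzymes had changes that varied in size between lines. Mgst1, found in the endoplasmic reticulum and the outer mitochondrial membrane, stood at 10.59, 9.57 and 10.62 on the fl 4-OHT arrays, against 10.56, 9.34 and 9.18 on the fl vehicle arrays. The changes were 0.03, 0.22 and 1.44 (mean 0.57 ± 0.77), and the mean was 0.13 without line 10986. The wt changes of Mgst1 were 0.22 and -0.72, with levels of 10.46 and 9.39 with 4-OHT against 10.24 and 10.11 with vehicle. Line 10986 gave most of the fl mean, and the wt lines had opposite signs.

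Mgst2 stood at 9.92, 8.50 and 9.53 on the fl 4-OHT arrays, against 10.24, 8.36 and 8.57 on the fl vehicle arrays. Its changes were -0.32, 0.13 and 0.96 (mean 0.26 ± 0.65), and without line 10986 the mean was -0.09. Mgst2 on the wt arrays stood at 10.36 and 10.13 with 4-OHT, against 10.70 and 10.06 with vehicle. The fl lines 10950 and 10986 were below both wt lines under both treatments, and line 10949 lay below them only under 4-OHT. The fl minus wt difference was -0.93 under 4-OHT, with no overlap, and -1.32 under vehicle, where the groups overlapped.

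Mgst3 stood at 7.53, 7.59 and 7.53 on the fl 4-OHT arrays, against 7.92, 6.85 and 7.25 on the fl vehicle arrays. Its changes were -0.39, 0.74 and 0.28 (mean 0.21 ± 0.57), so the fl 4-OHT arrays were closer together than the fl vehicle arrays, with SDs of 0.03 and 0.54. The wt levels were 7.10 and 6.84 with 4-OHT, against 7.09 and 7.14 with vehicle. Under 4-OHT all fl arrays lay above both wt arrays, by 0.58.

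**Figure D3:**
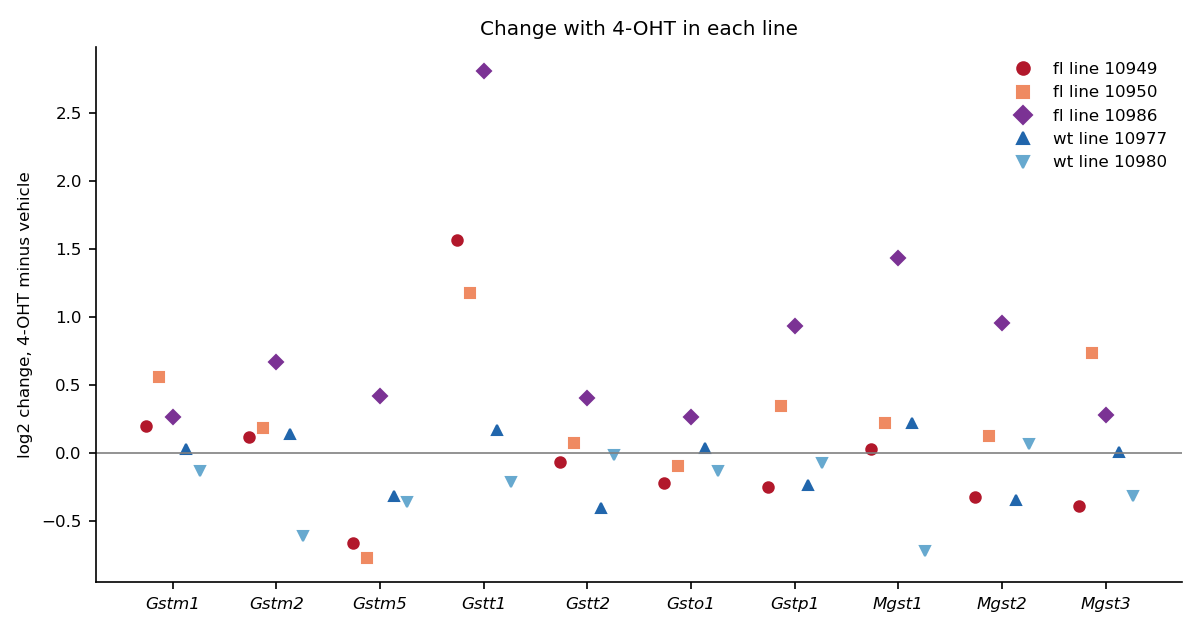
Log2 change (4-OHT minus vehicle) of the 10 genes in each line; red and purple markers are fl lines and blue markers are wt lines. Gstt1 is the gene with all 3 fl points above 1, and the line 10986 point is the highest of the fl points for every gene but Gstm1 and Mgst3.

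Set against all genes, the 10 had 4 members above 0 in all 3 fl lines (Gstm1, Gstm2, Gstt1 and Mgst1), and 14.6% of all genes tested were. None was below 0 in all 3. In single lines, 4 of 10 members were above 0 in line 10949 (47.4% of all genes), 8 in line 10950 (57.5%) and all 10 in line 10986 (45.5%). The median change of the 10 was -0.14, 0.21 and 0.55 in these lines, so it was below 0 in 1 of them and highest in the line whose vehicle array stood apart. On that vehicle array 3 members (Gsto1, Gstp1 and Mgst1) had their lowest level of all, as did 26.1% of all genes, and 0 members had their highest level there (27.1%). Among wt lines 6 members were above 0 in line 10977 (50.8% of all genes) and 1 in line 10980 (49.1%), while 0 were above 0 in both (24.3%) and 3 below 0 in both (24.5%).

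Groups that did not overlap were counted within and between genotypes. The fl 4-OHT arrays lay above the fl vehicle arrays for 1 member, Gstt1 (4.55% of all genes), and below them for 0 (7.27%). The wt 4-OHT arrays lay below the wt vehicle arrays for 2 members, Gstt2 and Gstp1 (12.4%), and above them for 0 (14.3%). Between genotypes under 4-OHT the fl arrays lay above the wt arrays for 5 members, Gstm2, Gstt1, Gstt2, Gstp1 and Mgst3 (12.6% of all genes), and below for Mgst2 alone (14.2%). Under vehicle the fl arrays lay above for Gstt1 alone (18.6%) and below for 0 (12.1%). The 10 genes were chosen with these contrasts in view, and nothing is read from the counts.

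In the limma fit across all genes, which takes the line as a block and adjusts over all genes by Benjamini-Hochberg at 0.05, 0 of the 10 were called in the fl lines, where 0.153% of all genes were. At an unadjusted p under that threshold there were 2 of the 10, and 12.3% of all genes. None was called in the wt lines (0% of all genes, and 0.147% unadjusted with 0 members), nor in the difference of the 4-OHT effect between fl and wt lines (0%, and 5.82% unadjusted with 1 member). For fl against wt arrays 0 were called under vehicle (0.0192% of all genes, 9.83% unadjusted with 2 members) and 0 under 4-OHT (0.645%, 10.8% unadjusted with 3 members). Without line 10986, 0 members were called in fl against wt arrays under vehicle (0.0128% of all genes) or under 4-OHT (0.249%), nor in the difference of the 4-OHT effect (0.128%). Without that line the fl calls covered 2.81% of all genes and included Gstt1 (mean 1.37) and Gstm5 (mean -0.72). Without its vehicle array alone, with the line as a random block, they covered 2.99% and included Gstt1, and for fl against wt arrays they covered 0.0383% under vehicle with 0 members and 1.07% under 4-OHT with Gstt2. These calls are counts only, since the choice of genes used the same contrast.

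Likeness over the 10 arrays was measured by Pearson's r for the 3 members that varied most, as a description in which the 2 arrays of a line share their cells. Gstt1 (SD 1.05) was most like Grk3, a kinase of G protein-coupled receptors, at 0.98, F11r, a junctional adhesion molecule, at 0.973, and Atp7a, a copper pump, at 0.971. Atp7a stood at 9.56, 8.81 and 10.05 on the fl 4-OHT arrays, against 8.62, 8.61 and 8.61 on the fl vehicle arrays, the same order of lines as Gstt1. Mgst2 (SD 0.86) was most like Agtrap at 0.98, Atp8b4 at 0.976 and Nrg4 at 0.974. Mgst1 (SD 0.58) was most like Sp3, a GC-box transcription factor, at 0.967, Slc35d2 at 0.962 and Macir at 0.953. Between members, r with Gstt1 ran from -0.174 (Gstm5) to 0.585 (Gstt2). With Mgst2 it ran from -0.431 (Gstt2) to 0.673 (Gstp1), and with Mgst1 from 0.152 (Gstt2) to 0.798 (Gstp1).

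The rest of the glutathione system was read from 6 lists of 104 other genes, of which 94 were measured and 84 passed the level filter. In the fl lines 0 of the 84 were called in either direction. An unadjusted p under the threshold was found for 21 of the 84, against 12.3% of all genes. The median change of the 84 was 0.09 in fl lines and -0.03 in wt lines, against -0.00 for all genes in both. The lists were chosen with earlier results known, so their counts describe these arrays.

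Other transferases of the family were read in the same way. Of 14 tested genes in the list of other family members and related membrane enzymes, 0 were called, and their median changes were 0.14 in fl lines and -0.10 in wt lines. Of these 14, 7 were above 0 in all 3 fl lines (14.6% of all genes were). Below 0 in all 3 was 1 (14.5%), the membrane enzyme gene Ptges, with changes of -0.14, -0.13 and -0.15. Of the 14, 10 are soluble or kappa class transferases by name, and 6 of these were above 0 in all 3 fl lines, with 0 below. Gsta4, which clears the lipid peroxidation product hydroxynonenal, had a change of 0.59 (SE 0.14, adjusted p = 0.168). Gstk1, a mitochondrial and peroxisomal kappa class enzyme, had changes of 0.23, 0.79 and 2.02 (SE 0.31, adjusted p = 0.247), with a mean of 1.01, and 0.51 without line 10986. Gstm4, a mu class gene on chromosome 3, had a change of 0.46 (SE 0.14, adjusted p = 0.247), and 0.29 without line 10986.

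Genes that supply glutathione gave a mixed picture. Slc7a11, the cystine importer, had changes of 0.74, 1.12 and 2.42, a mean of 1.43 (SE 0.29, limma adjusted p = 0.124). Gclm, the modifier subunit of the rate-limiting ligase, had a change of 0.47 (SE 0.14, adjusted p = 0.247), and Gclc, the catalytic subunit, 0.08 (SE 0.11, adjusted p = 0.935), or -0.03 without line 10986. Chac1, which degrades glutathione, had a change of -0.80 (SE 0.22, adjusted p = 0.197). None of the 16 tested genes of synthesis and turnover was called, and their median was 0.03.

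Of 15 genes of reduction, peroxidases and NADPH supply, 0 were called, with a median of 0.05. Gsr, glutathione reductase, had a change of 0.03 (SE 0.10, adjusted p = 0.985) and Gpx1, the main cytosolic peroxidase, -0.04 (SE 0.10, adjusted p = 0.980), or -0.11 without line 10986. Idh2, a mitochondrial source of NADPH, stood at 10.05, 10.39 and 9.93 on the fl 4-OHT arrays, against 10.89, 11.20 and 11.10 on the fl vehicle arrays, with no overlap. Its change of -0.94 (SE 0.14) did not pass (adjusted p = 0.0836). Gpx4, which reduces lipid peroxides in membranes, had a change of -0.36 (SE 0.13, adjusted p = 0.310). Among 9 tested genes of conjugate export and glyoxalases 0 were called, and the median was 0.02. Abcc2, a conjugate pump, had a change of 0.40 (SE 0.11, adjusted p = 0.210), and Abcc5, another pump, 0.16 (SE 0.10, adjusted p = 0.615).

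Of 20 NRF2 regulators and antioxidant response targets 0 were called, and the median was 0.20 in fl lines and -0.03 in wt lines. Hmox1, which breaks down haem, stood at 10.17, 9.39 and 10.66 on the fl 4-OHT arrays, against 9.03, 8.59 and 8.98 on the fl vehicle arrays, with no overlap. Its change was 1.21 (SE 0.21, adjusted p = 0.0948), and its wt changes were 0.20 and -0.57. Nqo1, a quinone reductase, had changes of 0.75, 0.61 and 1.42 in the fl lines (mean 0.93, SE 0.16, adjusted p = 0.0979) and of 0.05 and -0.04 in the wt lines. Nfe2l2, which encodes NRF2, had changes of 0.05, -0.03 and 1.09 (mean 0.37, SE 0.22, adjusted p = 0.592), and the mean was 0.01 without line 10986. Without line 10986, 5 of the 84 genes were called in the fl lines, and 2.81% of all genes were. Hmox1 rose by 0.97 (limma adjusted p = 0.0327), Nqo1 by 0.68 (adjusted p = 0.0154), Slc7a11 by 0.93 (adjusted p = 0.0125) and Ptgs2 by 0.75 (adjusted p = 0.0195). Idh2 fell by 0.82 there (adjusted p = 0.0251). This was the only alternative under which Hmox1 and Slc7a11 passed. With only the vehicle array of line 10986 left out, their limma adjusted p was 0.053 and 0.124. In that fit it was 0.0456 for Nqo1, 0.0344 for Idh2 and 0.0063 for Ptgs2.

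The list of 10 tested eicosanoid enzymes had 0 called in the fl lines and a median of 0.18. Ptgs2, the inducible cyclooxygenase, had a change of 0.67 (SE 0.12, adjusted p = 0.0948), and Ptgr2, a prostaglandin reductase, 0.75 (SE 0.32, adjusted p = 0.409). The changes of Ptgr2 were 0.30, 0.13 and 1.82, and the mean was 0.22 without line 10986. For fl against wt arrays under 4-OHT, Ptgs2 was the 1 gene of the 84 that was called. It stood at 8.26, 8.13 and 8.26 on the fl 4-OHT arrays, against 7.34 and 7.14 on the wt 4-OHT arrays, and was higher by 0.98 (SE 0.13, limma adjusted p = 0.0215, and 0.014 to 0.409 over the alternatives). The call was lost whichever of the 5 lines was left out. Of the 84 genes, 0 were called in the wt lines, in the difference of the 4-OHT effect or in fl against wt under vehicle. In these comparisons 0, 14 and 15 of the 84 had an unadjusted p under the threshold, against 0.147%, 5.82% and 9.83% of all genes. For fl against wt under 4-OHT it was 18 of the 84, against 10.8% of all genes.

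**Figure D4:**
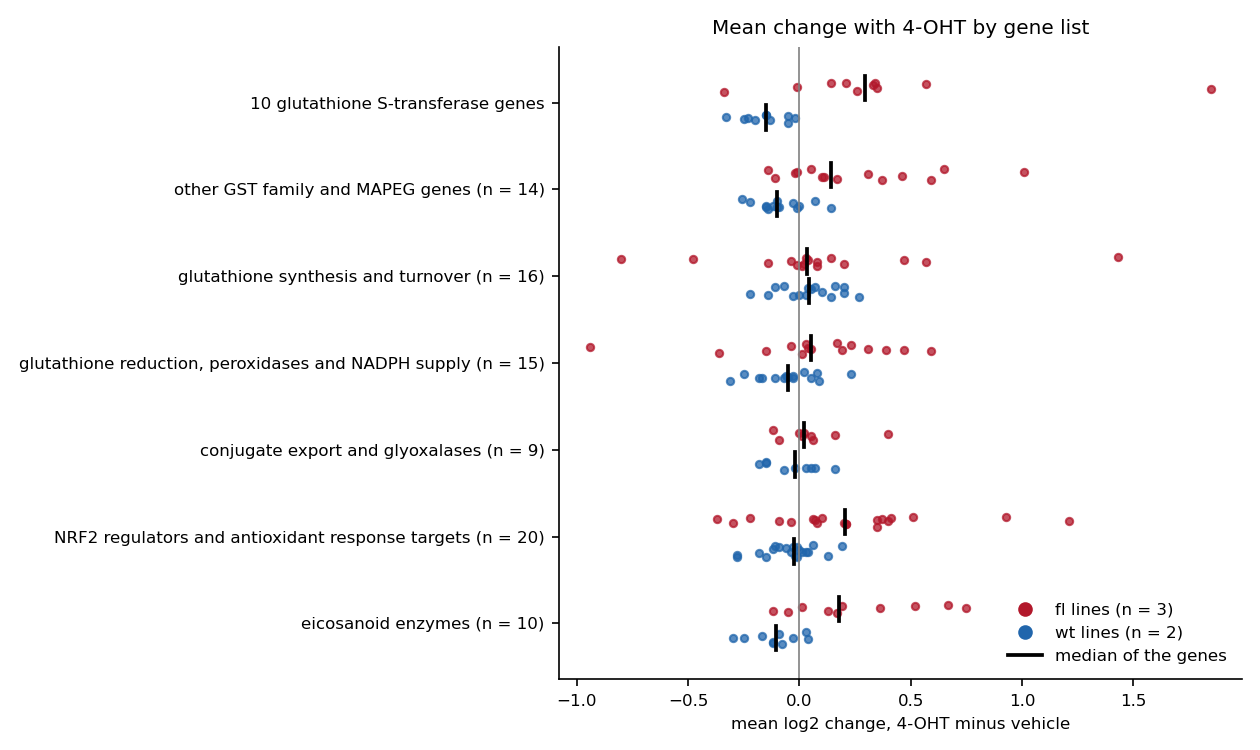
Mean log2 change (4-OHT minus vehicle) of each gene by list, red for the 3 fl lines and blue for the 2 wt lines, with a black bar at the median of the genes. The median of the 10 genes is 0.29 in fl lines and -0.15 in wt lines, and the rightmost point of their row is Gstt1.

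Some markers of other blood cells passed the test of the 4-OHT effect in the fl lines. The marker lists were chosen with earlier results of these data known, so their calls and counts only describe these arrays. Of 11 tested monocyte and macrophage markers, 3 rose with 4-OHT in the fl lines (Vcan, Irf8 and Ctss), where 0.0511% of all genes did, and the median of the 11 was 0.90. Their mean level per array was 9.57 to 10.39 on the fl 4-OHT arrays, against 8.94 to 9.38 on the fl vehicle arrays, and 9.0 to 9.69 on the wt 4-OHT arrays, against 9.31 to 9.45 on the wt vehicle arrays. These calls were lost when line 10949, 10950, 10977 or 10980 was left out, where 0 genes of all were called. The macrophage receptor gene Mrc1 was below the level filter. Of 9 tested late granulocyte markers 1 was called higher (Mmp8), and the median change of the 9 was 0.32. Above 0 in all 3 fl lines were 4 of the 9, as were 14.6% of all genes. Mean levels of the list were 8.74 to 9.40 on the fl 4-OHT arrays, against 8.27 to 8.79 on the fl vehicle arrays. In the mast cell, erythroid and lymphoid lists (8, 5 and 4 tested) 0 were called. The lymphoid markers Cd3g, Cd4 and Cd79a were below the filter, while Cd79b passed it, with a mean level of 10.17 over all arrays. The change of Cd79b was 0.80 in the fl lines (SE 0.22, limma adjusted p = 0.201), and 0.53 without line 10986. Its wt changes were 0.21 and -0.53, and the median fl change of the 4 tested lymphoid markers was -0.01. Whether a shift in the cells within the c-Kit+ gate has a part in the values of Gstt1 and the other 9 genes was not tested.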

How the data were processed

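RNA of sorted c-Kit+ cells was labelled with biotin and hybridised to 1-colour arrays, 1 for each line and treatment. The deposited values are intensity per probe set on a linear scale, made by the authors with RMA per the submitters' processing notes, and log2 was taken here. RMA corrects background and gives all arrays 1 distribution of probe signals, so a shift of most genes at once would be hidden. The sources used here name no genome build for the probes and no array batch. Arrays carry no read depth, and precision is limited by how many there are: log2 changes had a median SE of 0.12 for fl and 0.14 for wt lines. Whether the 2 cultures of a line were separate beyond treatment is not stated, so p-values measure the spread between these samples.

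Of 35556 probe sets, 21789 had 1 symbol in the platform annotation, 1621 had several and 12146 are unnamed here. For 21698 the Entrez identifier was in the RefSeq table of GRCm38.p6, and 0 symbols needed an update. The probe set with the highest mean stood for a gene.

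Comparisons used limma 3.58.1 in R 4.3.3 with moderated variances and two-sided tests, Benjamini-Hochberg adjusted at 0.05 over 15662 genes. All 10 arrays entered 1 fit with the line as a block, which the series design supports since each line was cultured both ways, and with separate 4-OHT terms for fl and wt lines (3 residual and 6.69 total degrees of freedom). As a check, the 2 arrays of a line deviated from their group means with correlations across genes of 0.78, 0.22 and -0.06 in lines 10949, 10950 and 10986, and 0.43 in both wt lines. The 2 wt values are equal by construction, because 2 lines deviate from their mean by opposite amounts, so they count as 1. For fl against wt arrays, 4 group means were fitted with a random line term (statmod 1.5.0, correlation 0.165). The fit was run on simulated data that gave each gene the same spread on every array. That run does not test how the fit handles an array that lies apart. Alternatives changed the block, the level filter, the scale, the offset added to intensities or the arrays included.

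The 10 genes, the lists and the marker lists were chosen with earlier results of these data known. Of the listed genes, the text names up to 6 that passed per list and comparison. Where fewer than 2 passed in a glutathione list, it names the 2 with the smallest unadjusted p in the fl lines, with Slc7a11, Gclc, Gclm, Gsr, Gpx1, Nfe2l2, Nqo1, Hmox1, Zfx and Kit always. Gstt4, Gstk1, Gstm4 and Cd79b, the other genes with a promoter match and the genes called without line 10986 were named after their values were seen.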

Additional observations from a re-analysis of the deposited data

Results flagged for a closer look

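Of the 84 listed genes outside the 10, 12 (14.3%) had all 3 fl lines on one side of 0 and both wt lines on the other, as did 1264 of the 15662 genes tested (8.07%). In 10 of the 12 the fl lines were above 0. Among the 12 were Gstt3, Gstk1, Abcc2 and Ptgr2, whose changes are described above. The mean fl change minus the mean wt change was 0.80 for Gstt3 (SE 0.20, limma adjusted p = 0.677 for the difference), with changes of 0.35, 0.65 and 0.93 in the fl lines and of -0.11 and -0.19 for wt. It was 1.23 for Gstk1 (SE 0.49, adjusted p = 0.827), with changes of 0.23, 0.79 and 2.02 in the fl lines and of -0.06 and -0.37 for wt. It was 0.47 for the export pump gene Abcc2 (SE 0.18, adjusted p = 0.798), with changes of 0.61, 0.18 and 0.41 in the fl lines and of -0.09 and -0.05 for wt. It was 1.05 for Ptgr2 (SE 0.50, adjusted p = 0.875), with changes of 0.30, 0.13 and 1.82 in the fl lines and of -0.57 and -0.02 for wt. None of these 4 differences passed the test.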

How the results depend on the processing

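The fl change of Gstt1 lay between 1.37 and 2.19 under all 13 alternatives, and that of Gstm5 between -0.72 and -0.12. The sign of the fl mean changed under at least 1 alternative for Gsto1 (-0.16 to 0.09), Mgst2 (-0.09 to 0.55) and Mgst3 (-0.06 to 0.51). Of 630 values of the 10 genes under the alternatives, 612 stayed within the spread between lines. This count does not measure robustness, because many of the values could not leave that spread. Changing only the block or the level filter left the fl and wt changes as they were. Leaving out a wt line does not alter the fl change, nor a fl line the wt change. Within a genotype, leaving out a line always moves the mean change by less than the SD of its line changes.

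The counts of called genes depended on the choices. In the fl lines 24 of 15662 genes were called, and 28 with no replicate block, 83 with a random block, 8 with no level filter, 14 with the filter at the 50th percentile, 3 with arrays centred on their median, 61 after quantile normalization, 0 to 440 when leaving out 1 line in turn (0 without 10949, 10950, 10977 or 10980, 440 without 10986) and 468 without the vehicle array of line 10986. Of the 84 listed genes 0 were called, and 1 with a random block, 0 to 5 leaving out 1 line and 3 without that vehicle array. The difference of the 4-OHT effect had 0 calls, and 1 with no replicate block, 1 with a random block, 0 to 20 leaving out 1 line and 21 without that array. For fl against wt under vehicle there were 3 calls, and 0 with no filter, with the 50th percentile and after quantile normalization, 0 to 15 leaving out 1 line and 6 without that array. Under 4-OHT there were 101, and 66 on centred arrays, 0 to 51 leaving out 1 line and 167 without that array. Of the listed genes 1 was called there, and 2 with the 50th percentile, 0 to 1 leaving out 1 line and 3 without that array. In the wt lines 0 genes were called under every alternative run. The counts without a line rest on fewer arrays. No other cause was tested. Each of the 10 genes has 1 probe set with it as the only symbol, so no other such probe set could be used. Gstp1 also has the 2 probe sets shared with Gstp2, described above.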
